A study of Mus musculus with 12 samples.

Results

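Replication-dependent histone genes were examined in HM1 cells, a mouse ovarian cancer line, with and without knockdown of the sialyltransferase gene St3gal3. Levels are in TPM, the share of a library's transcripts that a gene holds, corrected for transcript length and scaled to the same total in each library. The genes were taken by symbol: rows named H1f1 to H1f6, or H2ac, H2bc, H3c or H4c followed by a number, in all 12 expression tables. This gave 65 genes of 55416 shared gene identifiers: 6 of class H1, 18 of H2A, 17 of H2B, 12 of H3 and 12 of H4. The family was proposed with results of these data known, so its levels and the tumor contrast are a description here. Of the 65 genes, 40 had a mean of at least 1 TPM in at least 1 of the 4 groups: 3 of class H1, 11 of H2A, 9 of H2B, 9 of H3 and 8 of H4. Just below that limit were H2bc13 at 0.817, H2bc24 at 0.953 and H3c2 at 0.960 TPM in their highest group. Just above it were H4c3 at 1.03, H3c6 at 1.05 and H1f3 at 1.05 TPM. H2ac1 and H2bc1 were listed at 0 in every library.

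These genes encode the 4 core histones, H2A, H2B, H3 and H4, around which DNA is wound, and the linker histone H1, which binds DNA where it enters and leaves the nucleosome. They lie in clusters, lack introns and are transcribed mainly in S phase, when new DNA is packaged. Their mRNAs usually end not in a poly(A) tail but a few bases past a conserved stem-loop, which the protein Slbp binds. Some members also give longer transcripts that end in a poly(A) tail. Replication-independent variants such as H3.3, H2A.Z and H1.0 come from other genes and have ordinary poly(A) tails.

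The study had 4 groups of 3 libraries each. The cultured cells carried either a control short hairpin RNA (shControl) or a hairpin against ST3GAL3 (shST3GAL3), and so did the cells that formed the tumors, from which whole tumor tissue was taken. Host strain, animal age, tumor age and the number of clones behind each line are not given in the sources used here, and neither is whether RNA was chosen by its poly(A) tail or freed of ribosomal RNA. Where the labels do not say that libraries came from separate cultures or animals, p-values measure only the spread between these libraries, which may be technical. In whole tumors, fewer cells of a type and less RNA per cell cannot be told apart.

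The targeted gene followed the labels. St3gal3 stood at 9.59 to 12.9 TPM in control cultures and 1.25 to 1.83 TPM in knockdown cultures, and at 14.0 to 15.4 TPM in control tumors and 5.76 to 7.28 TPM in knockdown tumors. TPM values keep no record of read depth, so the depth is unknown and no counting interval can be given. Epithelial tumor markers (Krt8, Krt18, Krt19, Krt7, Epcam, Msln) summed to 4567 to 5052 TPM in culture. Nearly all of that was Krt8, Krt18 and Krt19, while Krt7 had at most 0.44 and Epcam at most 0.30 TPM in any culture library. Markers of lymphocytes, fibroblasts and endothelium summed to at most 1.69 TPM per list there. Erythroid markers summed to at most 3.60 TPM in culture and muscle markers to at most 4.51 TPM. Macrophage markers summed to 13.4 to 18.3 TPM in culture, most of it Cd68. The tumors also held host cells, with macrophage markers at 1366 to 1975 TPM.

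The results below are also set out by how far each transcript runs past the stem-loop. Stem-loops of some of the more abundant members of each class, where one was matched, are therefore shown here. They were read from the GENCODE vM21 transcript (GRCm38) with the same gene identifier and the same length as the deposited row. Capitals mark the match to the stem-loop, searched in the transcript's own direction as GG, any 2 bases, CTTTT, any base, AG, any 2 bases and CC with no gap, with 5 bases on each side.
H1f2: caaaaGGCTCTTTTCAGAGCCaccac
H2bc8: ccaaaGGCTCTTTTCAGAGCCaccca
H2ac18: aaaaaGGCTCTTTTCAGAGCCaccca
H2ac19: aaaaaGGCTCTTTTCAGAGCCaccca
H4c9: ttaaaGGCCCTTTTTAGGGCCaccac
H4c8: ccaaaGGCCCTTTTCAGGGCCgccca
H4c18: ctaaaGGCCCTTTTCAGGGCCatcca
H3c3: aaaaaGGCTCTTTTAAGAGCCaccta
The motif was found in 40 of the 65 members and in 0.167% of protein-coding GENCODE transcripts. H2ac18 and H2ac19 had the same printed bases. No match was found in the H2bc4, H2bc18 and H2bc21 transcripts, whose models have 1156, 381 and 2620 bases. A model that stops before the loop cannot show a match.

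The sums over all 65 members were alike in the 2 culture groups and higher in tumors, with the knockdown tumors below the control tumors. The rise from culture to tumors rested largely on H1f2 and H2bc4. TPM is scaled by transcript length, so members are added and compared here. The deposited values list 1 length per gene, such as 7425 bases for H1f3 and 381 bases for H2bc18. Sums and comparisons hold only as far as those lengths match the transcripts present, which was not measured. In culture the sum was 274, 244 and 271 TPM in the 3 control libraries and 240, 269 and 265 TPM in the knockdown libraries. In tumors it was 794, 555 and 760 TPM in the controls and 331, 365 and 423 TPM in the knockdowns. Control tumor 2 was the lowest control, yet every knockdown tumor lay below it. The knockdown tumors held on average 53.0% of the control sum (703 ± 130 against 373 ± 46.7 TPM, SD, n = 3 each), a log2 ratio of -0.91. Control tumors stood 2.67-fold above control cultures and knockdown tumors 1.45-fold above knockdown cultures. Without H1f2 and H2bc4, the other 63 members summed to 232 ± 16.2 TPM in control cultures and 360 ± 72.4 TPM in control tumors, 1.555-fold apart. In the knockdowns those 63 summed to 228 ± 14.99 TPM in culture and 231 ± 24.8 TPM in tumors (SD, n = 3 each), and the knockdown tumors held 64.1% of the control tumors. The tables of the 2 tissues were normalized separately, so these folds between tissues are a description.

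The 5 classes did not share this pattern to the same degree. In tumors, class H1 went from 236 ± 48.6 to 93.1 ± 19.5 TPM (SD, n = 3 each), or 39.4% of the control level. H1f2 held 98.6% of the H1 sum in control tumors and 98.2% in knockdown tumors, so this class value is close to that of 1 gene. H2bc4 held 72.5% and 68.4% of the H2B sum in control and knockdown tumors. The H2B sum of the knockdown tumors was 48.8% of the control, the H2A sum 64.0%, the H4 sum 64.4% and the H3 sum 85.3%. The control and knockdown tumors did not overlap for H1, H2B, H3 and H4. They overlapped for H2A, where control tumor 2 at 133 TPM lay below knockdown tumor 3 at 138 TPM. The H3 gap was narrow, between control tumor 2 at 16.6 TPM and knockdown tumor 1 at 16.2 TPM. The mean H3 sum went from 17.4 to 14.9 TPM, while H3c15 by itself went from 5.42 to 2.12 TPM. Against control cultures, the control tumors stood 20.3-fold higher for H1, 3.86-fold for H2B, 1.73-fold for H2A and 1.28-fold for H4, while H3 stood at 0.96 of its culture level. The H4 fold includes H4c17, listed at 0 in every culture library and at a mean of 13.5 TPM in control tumors. Knockdown tumors against knockdown cultures stood at 8.43-fold for H1, 1.92-fold for H2B, 1.15-fold for H2A, 0.82-fold for H4 and 0.81-fold for H3. In culture the 2 groups overlapped in every class. No test was made between classes.

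**Figure D1:**
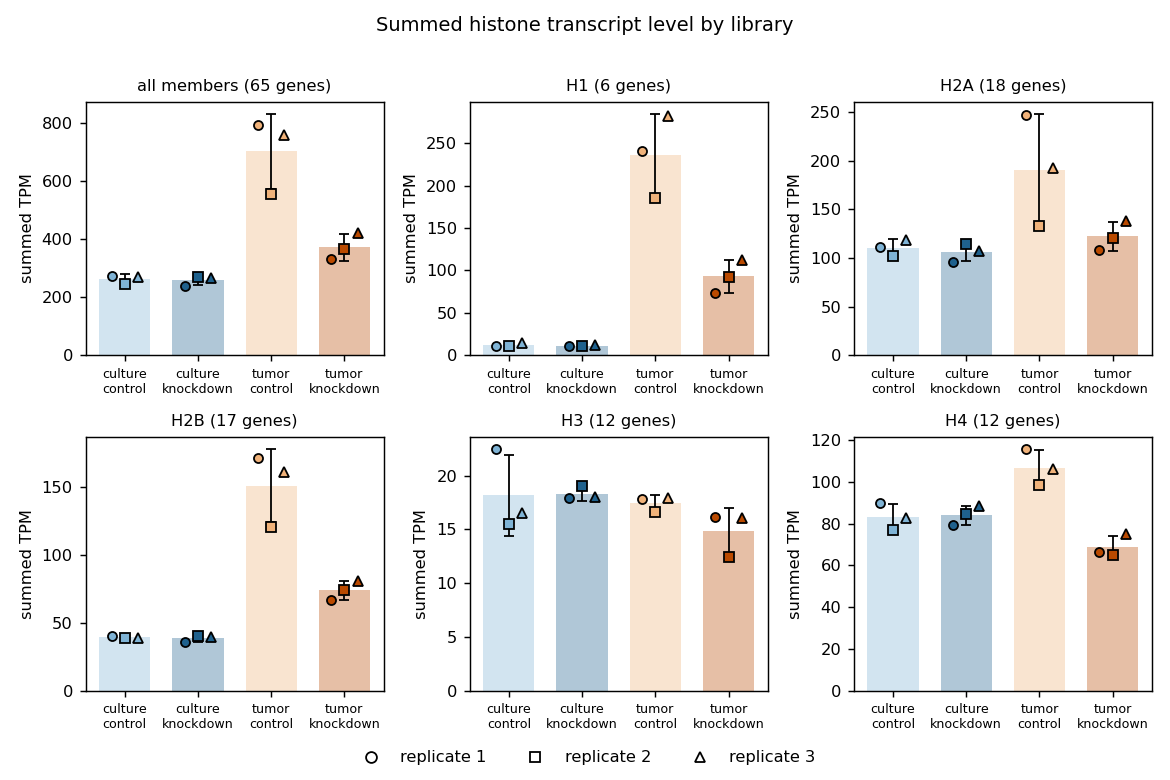
Summed TPM of the members of each histone class in each of the 12 libraries; points are libraries, bars are group means and error bars are SD (n = 3). The 2 culture groups overlap in every class, and the H1 and H2B sums of the knockdown tumors lie below those of all control tumors.

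The genes called lower in the knockdown tumors were the linker histone gene H1f2, the H2B genes H2bc4 and H2bc18 and the H4 gene H4c9. They were 4 of 39 members tested there, with none higher, by limma across all 14915 genes with Benjamini-Hochberg adjustment. Over all genes, 1.51% were called and 0.436% were called lower. At an unadjusted p under 0.05, 16 members were lower and 1 higher, where 11.2% and 7.52% of all genes were. For 16 of the 39 tested members every knockdown tumor lay below every control tumor, against 14.9% of all genes, and for 0 members every knockdown tumor lay above, against 9.81%. Of the 39, 9 passed the level filter through the control tumors only (H1f3, H1f4, H2ac4, H2ac6, H2bc6, H2bc18, H2bc23, H4c3 and H4c6) and 3 through the knockdown tumors only, so these counts are a description of those that passed. The 27 that passed in both groups included 11 of the 16. Of the low members that were not tested, H1f5, H3c2 and H4c14 were lower without overlap in the knockdown tumors and H2bc14 and H4c11 higher, which makes 19 lower and 2 higher of all 65. The median log2 change was -0.49 over the 39 members and -0.05 over all genes, and by class -0.64 for H1, -0.14 for H2A, -0.53 for H2B, 0.10 for H3 and -0.60 for H4. All log2 changes of single genes are on the log2(TPM + 1) scale, which understates the change of low genes.

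H1f2, the leading linker histone gene, held the largest share of the histone sum in tumors, 33.1% in the controls and 24.5% in the knockdowns. Its control tumors stood at 238, 182 and 278 TPM and its knockdown tumors at 71.9, 91.7 and 111 TPM. The lowest control was far above the highest knockdown. The log2 change was -1.34 (SE 0.210, limma adjusted p = 0.0494). In culture H1f2 stood at 10.1, 9.99 and 13.6 TPM in the controls and 10.6, 9.94 and 10.96 TPM in the knockdowns, with the groups overlapping and a log2 change of -0.08 (95% interval -0.41 to 0.25). H1f4, which encodes another linker histone of dividing cells, was far less abundant.

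H1f4 had 1.32, 1.27 and 1.70 TPM in control tumors against 0.60, 0.52 and 0.93 TPM in knockdown tumors. The groups did not overlap, and the log2 change of -0.53 did not pass (adjusted p = 0.188). In culture the order was the other way round, with 0.42, 0.26 and 0.31 TPM in controls and 0.47, 0.54 and 0.51 TPM in knockdowns, all under 1 TPM and not tested there. H1f3 had a mean of 1.05 TPM in control tumors against 0.310 TPM in knockdown tumors without overlap (adjusted p = 0.142). H1f1, H1f5 and H1f6 stayed under 1 TPM on average in all 4 groups, H1f6 being known for its role in the testis.

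Among the H2B genes, H2bc4 was the most abundant in every group. It stood at 126, 87.0 and 117 TPM in control tumors against 45.3, 53.4 and 53.1 TPM in knockdown tumors. All knockdown tumors lay well below the lowest control, control tumor 2. The log2 change was -1.09 (SE 0.144, limma adjusted p = 0.0208). In culture the 6 libraries ranged from 19.02 to 20.94 TPM, the groups overlapped, and the log2 change was 0.00 (95% interval -0.21 to 0.21).

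H2bc18 was a low member, with 2.17, 2.12 and 2.59 TPM in control tumors against 0.23, 0.13 and 0.80 TPM in knockdown tumors. Its groups did not overlap, and its log2 change was -1.28 (SE 0.218, adjusted p = 0.0458). It passed the level filter only through the control tumors. In culture it had at most 0.50 TPM in any library.

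H2bc8 stood at 22.5, 10.4 and 15.7 TPM in control tumors against 6.65, 5.05 and 10.2 TPM in knockdown tumors. Its groups were separated only narrowly, between control tumor 2 and knockdown tumor 3, and its log2 change of -1.04 (SE 0.333) did not pass, with an adjusted p of 0.190. Its culture libraries ranged from 2.18 to 3.76 TPM and overlapped. H2bc21 (log2 change -0.53, adjusted p = 0.0519), H2bc23 (-0.81, adjusted p = 0.154) and H2bc6 (-0.52, adjusted p = 0.209) also did not overlap between tumor groups. H2bc3, H2bc11 and H2bc12 did overlap, at log2 changes of -0.22, 0.30 and -0.49.

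H4c9 held most of the H4 sum, 82.0% in control cultures and 52.6% in control tumors. Its tumor controls stood at 56.6, 54.3 and 57.7 TPM and its tumor knockdowns at 34.2, 38.5 and 40.6 TPM, a log2 change of -0.56 (SE 0.0803, adjusted p = 0.0252). Control tumor 2 was hardly lower than the other controls here. In culture it had 72.5, 62.9 and 69.1 TPM in controls and 67.1, 70.8 and 77.8 TPM in knockdowns, overlapping, with a log2 change of 0.08 (95% interval -0.13 to 0.28). Unlike H1f2 and H2bc4, H4c9 was lower in tumors than in culture.

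Of the other H4 genes, H4c8 had 17.8, 10.2 and 10.96 TPM in control tumors against 5.60, 6.02 and 7.81 TPM in knockdown tumors. Its groups did not overlap, and its log2 change of -0.88 did not pass (adjusted p = 0.104). It was also lower without overlap in culture, with 5.23, 4.80 and 4.63 TPM in controls and 2.22, 3.79 and 2.93 TPM in knockdowns (log2 change -0.58, unadjusted p = 0.0121, adjusted p = 1). H4c18 did not overlap in tumors either, with a mean of 13.6 TPM in controls and 5.80 TPM in knockdowns (-1.07, adjusted p = 0.0855). H4c2 had a log2 change of -0.67 (adjusted p = 0.0572). H4c1, H4c3 and H4c6 overlapped between tumor groups, at -0.27, -0.23 and -0.64, and H4c17 at -0.13.

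The H2A class had no called member in tumors. H2ac18 had 100.02 TPM in control tumor 1, 44.4 TPM in control tumor 2 and 83.6 TPM in control tumor 3, against 35.7, 39.0 and 38.2 TPM in the knockdowns. Control tumor 2 lay close to the knockdowns but above them, and the log2 change of -0.92 (SE 0.302) did not pass (adjusted p = 0.203). Its near-copy H2ac19 had 123, 59.1 and 82.1 TPM in controls and 41.9, 54.8 and 64.1 TPM in knockdowns, so control tumor 2 lay inside the knockdown range (log2 change -0.66, adjusted p = 0.314). All of the 50-base stretches of the H2ac19 transcript and 89.2% of those of H2ac18 also occur in another member, so the division of reads between these genes, and with it their levels, is uncertain.

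In culture H2ac18 ranged from 18.7 to 29.6 TPM and H2ac19 from 30.1 to 41.9 TPM, both with overlapping groups. H2ac10 went the other way from most of the family in tumors, with 2.20, 5.43 and 3.27 TPM in controls and 4.37, 7.62 and 7.30 TPM in knockdowns. Those groups overlapped, and the log2 change of 0.71 had an unadjusted p of 0.0494 and an adjusted p of 0.266. H2ac24 had 4.89, 2.67 and 4.42 TPM in control tumors against 4.90, 4.29 and 3.57 TPM in knockdown tumors, overlapping at a log2 change of 0.09. In culture it had 4.82, 4.06 and 2.79 TPM in controls and 1.28, 1.63 and 3.45 TPM in knockdowns (-0.69, unadjusted p = 0.0470, adjusted p = 1). Of the rest, H2ac8 did not overlap (-0.58, adjusted p = 0.214), and H2ac4, H2ac6, H2ac7, H2ac11, H2ac12 and H2ac22 overlapped, with log2 changes from -0.62 to 0.68.

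The H3 class was low in both tissues, and its log2 changes had both signs. H3c15 alone among its tested genes did not overlap between tumor groups, with mean levels of 5.42 TPM in control tumors against 2.12 TPM in knockdown tumors and a log2 change of -1.01 (adjusted p = 0.0678). H3c3 had 1.82, 2.79 and 1.33 TPM in control tumors against 3.45, 1.62 and 2.47 TPM in knockdown tumors, overlapping at 0.23. Its culture groups were apart, with 4.46, 4.46 and 4.17 TPM in controls and 2.49, 3.64 and 3.76 TPM in knockdowns (-0.33, adjusted p = 1). H3c10 varied widely within each group, from 0.42 to 2.65 TPM in control tumors and from 0.44 to 3.17 TPM in knockdown tumors, and from 1.34 to 5.91 TPM in culture. H3c1, H3c4, H3c8, H3c11 and H3c13 overlapped between tumor groups, with log2 changes from -0.36 to 0.63, and H3c6 had a mean of 1 TPM or more only in control cultures.

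**Figure D2:**
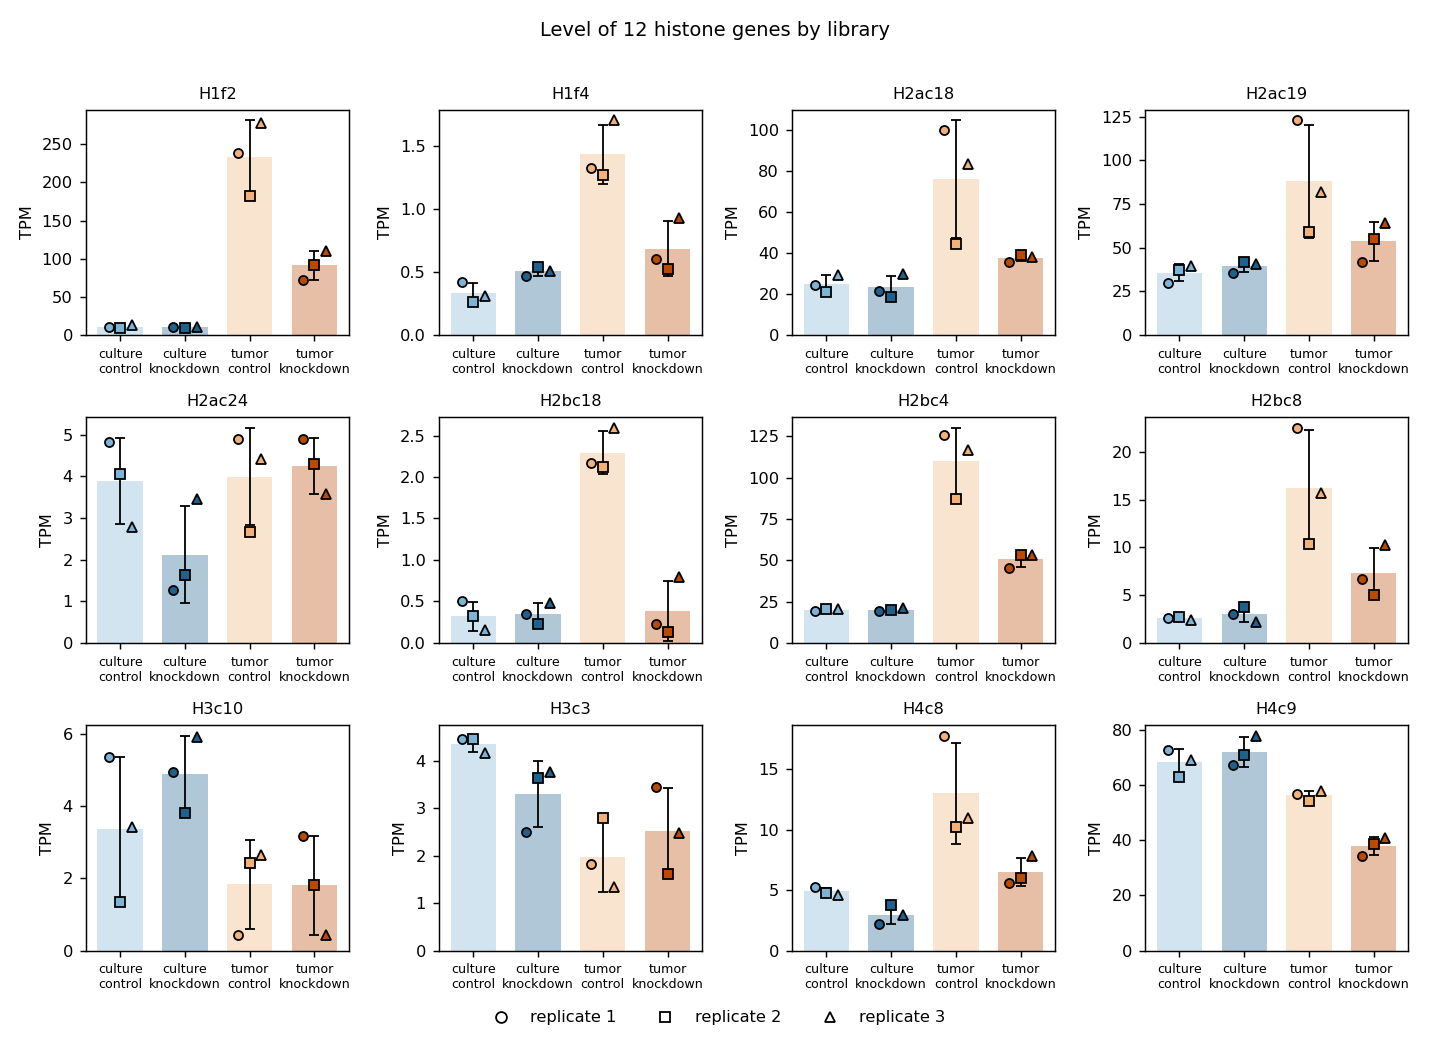
TPM of the 12 members given library by library, with 1 panel per gene; points are libraries and bars are group means. In H1f2, H2bc4, H2bc18 and H4c9 every knockdown tumor lies below every control tumor, and the culture groups of those genes overlap.

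The cultured cells showed no called histone gene. Of the 27 members tested there 0 passed by limma, where 0.0296% of all 13492 genes did and 0.0148% passed as lower. At an unadjusted p under 0.05, 3 were lower (H4c8, H4c18 and H2ac24) and 0 were higher, against 1.32% and 2.1% of all genes and 3.42% in either direction. The median log2 change was -0.06 over the members and 0.02 over all genes. Groups did not overlap for 3 of the 27, each lower in the knockdown, where 2.45% of all genes were lower without overlap and 5.25% higher.

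The tumor effect was then set against the culture effect in a single fit of the 12 libraries, with the difference itself tested. H2bc4 (-1.09, SE 0.172, limma adjusted p = 0.0153) and H4c9 (-0.64, SE 0.119, adjusted p = 0.0334) passed, both lower in the tumor contrast. They were 2 of 40 members tested, where 0.754% of 15381 genes passed and 0.182% passed as lower. H1f2 (-1.26, adjusted p = 0.0526) and H2bc18 (-1.31, adjusted p = 0.0528) did not pass. At an unadjusted p under 0.05, 12 members were lower and 1 was higher, against 6.21% and 4.86% of all genes. The median over members was -0.51 and over all genes -0.06.

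**Figure D3:**
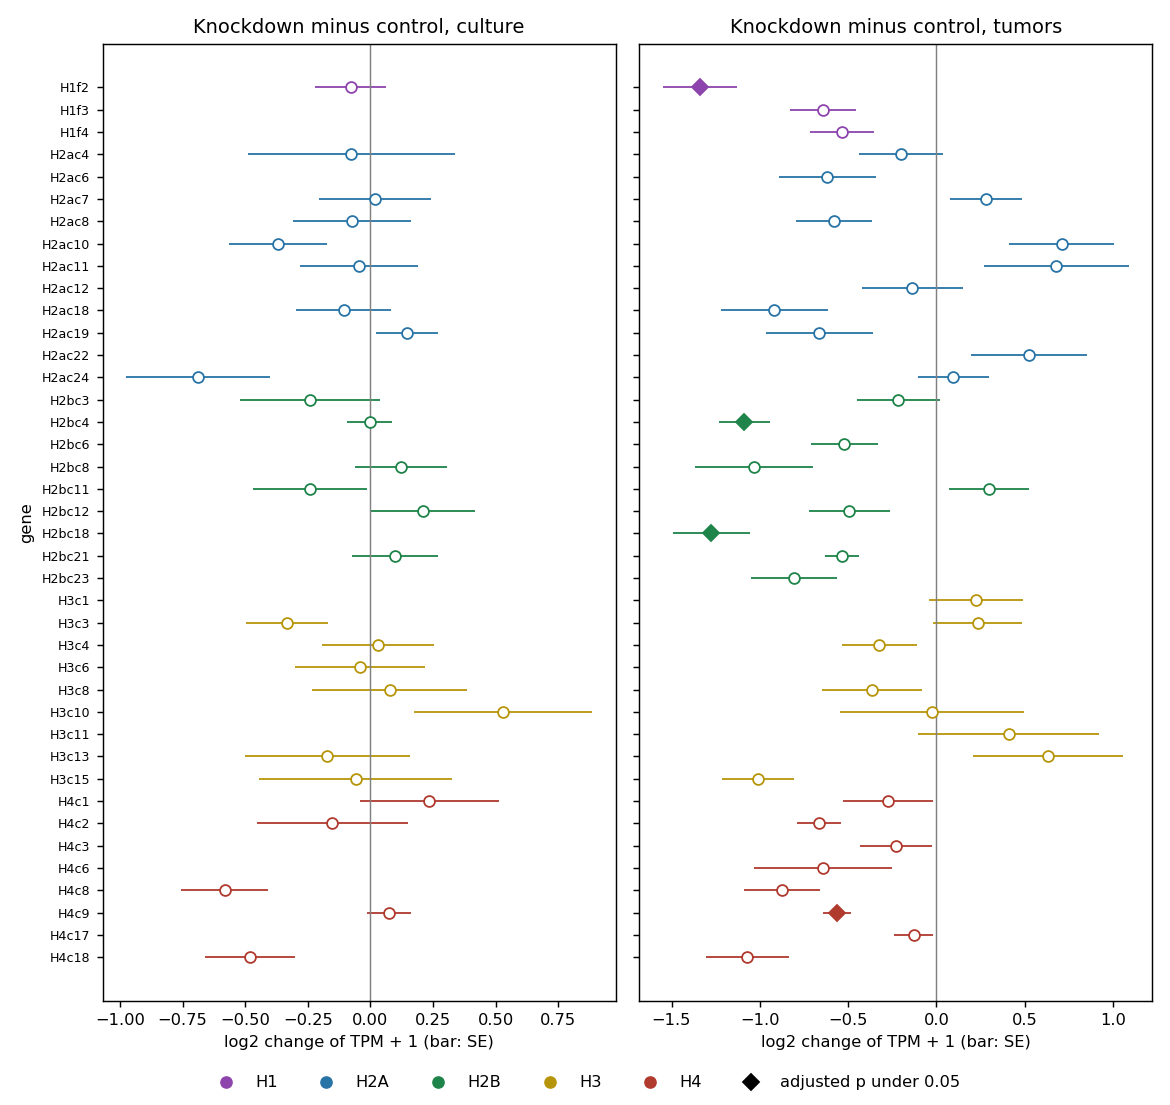
Log2 change on the log2(TPM + 1) scale (knockdown against control) of the tested members in culture and in tumors, by class; each point is a gene, with called genes marked. The culture changes center near 0, and the called genes lie below 0 in the tumors.

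These calls rested on few libraries. Leaving out control tumor 1, 2 or 3 in turn left 1, 4 and 0 called members, and leaving out knockdown tumor 1, 2 or 3 left 0, 0 and 3. Each of the 4 kept its negative sign in all of those fits. Without the level filter 0 members were called, and with all 4 groups in 1 fit 12 were, all lower. The share of all genes called in each of these fits is not given here, so the counts are not read as particular to the histones. For the difference of effects, H2bc4 was called with any 1 library left out, and H4c9 only without control culture 1, knockdown culture 1 or knockdown tumor 3.

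Members were next set out by how far their transcript runs past the stem-loop, a sequence property that the choice of members did not use. The limit of 100 bases was chosen after the values were seen. In 19 members the transcript model ran at least 100 bases past the loop, among them H1f2 with 840, H4c9 with 330 and H2bc8 with 155 bases. In 21 it ended sooner, as in H2ac18 and H2ac19 with 35, H4c18 with 31, H4c8 with 46 and H3c3 with 74 bases, and in 25 no loop was matched. Some of the 25 models are short, such as 381 bases for H2bc18, 399 for H2ac10, 411 for H3c10 and 312 for H4c12. A model may stop before the loop, so no match does not mean that a gene lacks one. The models are annotations, and which form each library held was not measured here.

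The members with long models summed to 325 ± 56.8 TPM in control tumors and 147 ± 26.0 TPM in knockdown tumors, or 45.2% of the control. Those with short models went from 241 to 151 TPM, or 62.5%, and those with no match from 137 to 75.1 TPM, or 55.0%. H1f2 made up most of the long set, and without it the long set stood at 60.2% of the control. Over all members, tested or not, the knockdown tumor mean was below the control mean in 15 of 19 long models, 14 of 21 short models and 14 of 25 without a match. The 4 long models with a higher knockdown mean were H1f6, H3c6, H3c14 and H4c11, all under 1 TPM in both tumor groups. Of the 11 long models tested in tumors, 5 passed the level filter only through the control tumors. No test was made between these sets.

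**Figure D4:**
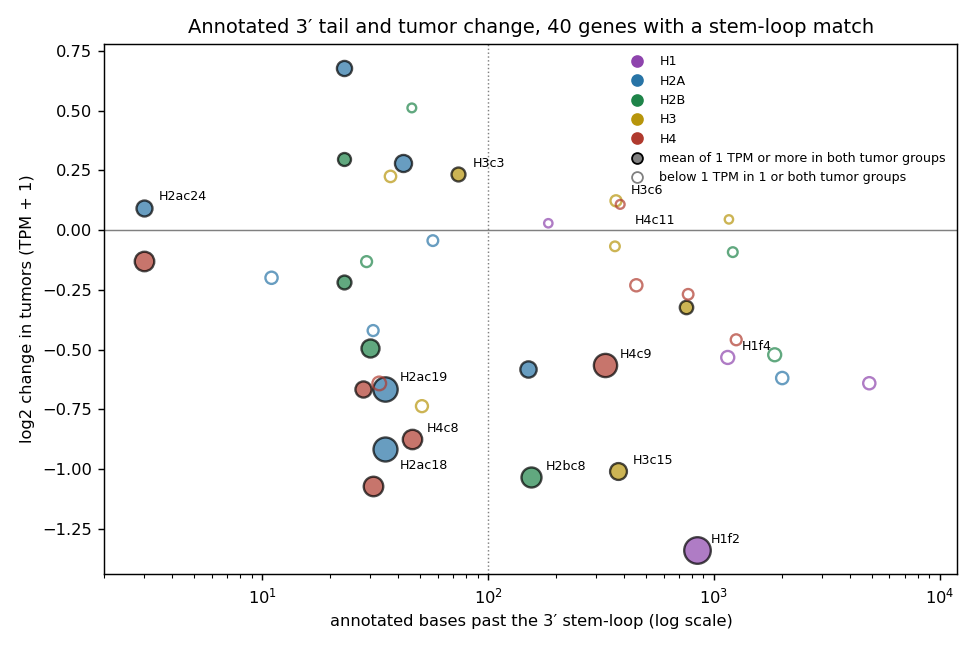
Log2 tumor change (knockdown against control, log2(TPM + 1) scale) of the 40 members with a matched stem-loop, tested or not, against the bases of the transcript model past the loop, on a log axis; marker size grows with the mean level in control tumors, and open markers are members under 1 TPM in 1 or both tumor groups. Members on either side of the line at 100 bases lie both above and below 0.

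Promoter sequences of the called genes that have a RefSeq entry, and of H2bc8, are shown so that members of 3 classes with lower tumor levels can be read beside each other. They run from 250 bases before to 50 bases after the annotated start in GRCm38.p6, 5′ to 3′ on the gene's strand: H1f2 at chr13:23738557-23738856 (+), H2bc8 at chr13:23571150-23571449 (+), H2bc18 at chr3:96269450-96269749 (+) and H4c9 at chr13:22041313-22041612 (-). Capitals mark, on either strand, the TATA-box letters TATAAA, the CCAAT box, the octamer ATTTGCAT or the H1-box letters AAACACA.
H1f2: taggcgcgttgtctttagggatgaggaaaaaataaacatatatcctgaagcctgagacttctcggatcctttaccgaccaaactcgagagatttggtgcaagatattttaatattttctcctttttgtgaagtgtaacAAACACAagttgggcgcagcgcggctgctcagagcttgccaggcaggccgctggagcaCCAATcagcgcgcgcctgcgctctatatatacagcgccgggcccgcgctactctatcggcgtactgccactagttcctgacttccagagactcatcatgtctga
H2bc8: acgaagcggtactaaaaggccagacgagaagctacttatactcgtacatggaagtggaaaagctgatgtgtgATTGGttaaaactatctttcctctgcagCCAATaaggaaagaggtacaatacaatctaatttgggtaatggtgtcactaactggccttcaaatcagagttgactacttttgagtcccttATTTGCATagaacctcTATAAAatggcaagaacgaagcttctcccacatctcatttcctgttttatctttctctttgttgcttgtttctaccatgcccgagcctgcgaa
H2bc18: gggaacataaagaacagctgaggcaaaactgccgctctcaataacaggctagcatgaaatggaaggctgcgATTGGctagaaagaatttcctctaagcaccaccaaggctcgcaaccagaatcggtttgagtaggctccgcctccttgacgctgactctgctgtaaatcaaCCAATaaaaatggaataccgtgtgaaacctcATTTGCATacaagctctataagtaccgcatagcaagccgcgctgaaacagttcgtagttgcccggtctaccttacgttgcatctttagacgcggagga
H4c9: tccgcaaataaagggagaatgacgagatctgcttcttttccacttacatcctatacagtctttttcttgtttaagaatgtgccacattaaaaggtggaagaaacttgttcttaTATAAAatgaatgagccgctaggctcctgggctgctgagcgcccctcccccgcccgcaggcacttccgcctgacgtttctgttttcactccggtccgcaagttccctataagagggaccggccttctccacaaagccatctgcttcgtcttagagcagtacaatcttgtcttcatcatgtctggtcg
Of the 65 members 58 had an entry, 50 on chromosome 13 and 8 on chromosome 3, and H2bc6 had 2 entries, which makes 59 promoters. CCAAT was present in 86.4% of them and in 37.4% of all promoters of this length, TATAAA in 57.6% and 13.6%, ATTTGCAT in 22.0% and 1.74%, and AAACACA in 15.3% and 7.18%. The octamer, known from H2B promoters, was in 7 of 15 H2B promoters, among them 1 of the 2 entries of H2bc6, in 6 of 17 H2A promoters and in none of the other classes. The H1-box letters were in 5 of 6 H1 promoters. CCAAT was in all H1, H2A, H2B and H3 promoters and in 3 of 11 H4 promoters. A match is a description of letters and not a site.

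A set of 9 pairs of H2A and H2B genes point away from each other with overlapping promoter windows, so both genes of a pair share letters. H2ac8 and H2bc8 start 180 bases apart, and their tumor log2 changes were -0.58 and -1.04. H2ac12 and H2bc12 start 178 bases apart and stood at -0.14 and -0.49. H2ac11 and H2bc11 start 249 bases apart and stood at 0.68 and 0.30. Neither gene of these 3 pairs was called.

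Histone sums were set beside other genes of S phase, when these histones are made. The 27 S-phase genes listed (Pcna, Mcm and Gins subunits and others) summed to 3216 to 3494 TPM in culture and to 1041, 1243 and 1056 TPM in control tumors against 1281, 1247 and 1125 TPM in knockdown tumors. In tumors none of the 27 was called, where 1.51% of all genes were, a rate at which few or no calls are expected in a list this short. Of the 27, 21 had positive log2 changes, as did 5910 of all 14915 genes. The S-phase genes with an unadjusted p under 0.05 were 6 higher and 0 lower, against 7.52% and 11.2% of all genes. Their median was 0.15, and that of all genes was -0.05. Per 100 TPM of S-phase genes, the histone sum was 76.3, 44.6 and 72.0 TPM in control tumors against 25.8, 29.3 and 37.6 TPM in knockdown tumors, so the groups stayed apart on this scale. In culture it was 7.96 ± 0.64 and 7.58 ± 0.61 TPM (SD, n = 3 each). The 16 genes of G2 and mitosis had a tumor median of 0.10, with none called.

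**Figure D5:**
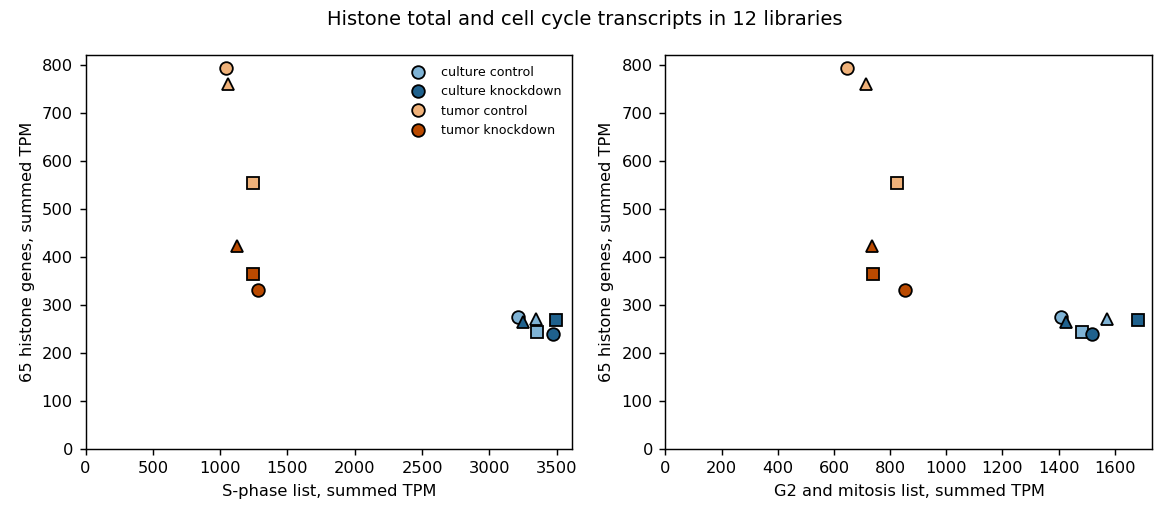
Summed TPM of the 65 histone members against the summed TPM of 27 S-phase genes (left) and of 16 genes of G2 and mitosis (right); each point is 1 of the 12 libraries. The 6 culture libraries lie at high cell cycle and low histone sums, and the control tumors lie above the knockdown tumors.

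Genes that work beside these histones were not called in tumors, where 1.51% of all genes were. At that rate few or no calls are expected in lists this short. Of 11 tested replication-independent histone genes none was called in tumors, and their sum was 3039 to 3053 TPM in controls and 2998 to 3033 TPM in knockdowns. The lowest adjusted p among them was that of H2aw, 0.102 at a log2 change of -0.52. The close sums held changes of both signs, with 5 of the 11 positive. At an unadjusted limma p under 0.05, 2 were lower (H2aw and H1f0) and 1 was higher (H2az1). H1f0 had a log2 change of -0.18 (adjusted p = 0.11) and H2az1 one of 0.34 (adjusted p = 0.116). The tumor groups did not overlap for either gene. Of 17 factors that process, bind or degrade histone mRNA none was called, and Slbp stood at 72.2 ± 6.60 and 72.2 ± 0.836 TPM in control and knockdown tumors (SD, n = 3 each). Of 18 histone chaperones none was called. Daxx, a chaperone of H3.3, came nearest at 0.53 with an adjusted p of 0.0527.

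Other summed levels also differed between tumors, and their part in the histone result was not tested. A list of RNAs taken as lacking an ordinary poly(A) tail, 5 of them tested, had a median log2 change of -0.36 with none called. The 11 of the list that were found summed to 414, 514 and 599 TPM in control tumors. In knockdown tumors they summed to 266, 293 and 516 TPM, overlapping through knockdown tumor 3. Most of the sum was Malat1 (means 244 and 139 TPM in control and knockdown tumors) and Neat1 (234 and 188 TPM). Lymphocyte markers (9 genes) summed to 16.7 to 39.2 TPM in controls and 45.2 to 58.2 TPM in knockdowns, and epithelial tumor markers to 3225 to 3431 and 2557 to 2825 TPM, both without overlap. Krt8, Krt18 and Krt19 made up most of the epithelial sum. Krt7 (group means 0.443 and 0.760 TPM in control and knockdown tumors) and Epcam (0.363 and 0.367 TPM) were not lower. The sums of 6 fibroblast markers (782 to 1011 and 528 to 837 TPM), 5 endothelial markers (52.0 to 75.4 and 35.04 to 52.4 TPM), 5 erythroid markers (79.1 to 107 and 37.7 to 88.0 TPM), 7 muscle markers (2.31 to 13.4 and 12.01 to 85.5 TPM) and 8 macrophage markers (1366 to 1975 and 1464 to 1921 TPM) overlapped. The muscle sum was highest in knockdown tumors 1 and 3, at 85.5 and 61.7 TPM.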

How the data were processed

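RNA-seq was made from total RNA of 6 culture and 6 tumor libraries, 3 in each of 4 groups. The deposited values are TPM per gene, 1 table per library, each scaled to the same total, as the file values show, with gene lengths per the file headers. Per the submitters' processing notes, the tools were HISAT, RSEM and fastp and the build was GRCm39. Their versions are not given in the sources used here. There were 56061 genes in a culture table and 55878 in a tumor table.

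Each tissue was fitted on its own with limma 3.58.1 in R 4.3.3 (trended, robust empirical Bayes) on log2(TPM + 1), keeping genes whose mean reached 1 TPM in any group of the fit. P-values were adjusted by Benjamini-Hochberg over all genes of the fit and called under 0.05. The tumor effect minus the culture effect was fitted on all 12 libraries. Class sums were not tested. The procedure was tested on simulated data. Python 3.11.15 was used for sums and sequences, and matplotlib 3.10.9 for plots.

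The members, gene lists and marker lists were chosen with earlier results of these data known. Values by library are given for members called in any fit, the 2 most abundant of each class, the 3 with the largest change in each tissue, and H1f2. H2ac10, H3c15, H4c17 and H4c18 were added after their values were seen. Of the listed genes, H3f5 and 4 small RNAs were not analysed here. Alternatives were another pseudocount, no filter, a stricter filter, another scaling, a replicate block, 1 fit of all groups and each library left out.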

Additional observations from a re-analysis of the deposited data

Results flagged for a closer look

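In 2 genes the knockdown effect differed between tumors and culture by the test of the difference itself. For H2bc4 the tumor log2 change minus the culture log2 change was -1.09 (limma adjusted p = 0.0153), with all 3 knockdown tumors below all 3 control tumors and overlapping groups in culture. For H4c9 it was -0.64 (limma adjusted p = 0.0334), with the same separation in tumors and overlap in culture.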

How the results depend on the processing

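The number of members called in tumors, 4 in the reported fit, was 4 with a pseudocount of 0.1 and 4 with median-of-ratios scaling. It was 0 without the level filter, 7 with a filter that asks for 1 TPM in at least 3 libraries, 12 with all 4 groups in 1 fit, 0 without knockdown tumors 1 and 3 (the lone remaining sample is then assumed to vary like the controls), and 0 to 4 with 1 library left out. All of these calls were lower in the knockdown. The number called for the difference of effects, 2 as reported, was 1 with a pseudocount of 0.1, 1 without the filter, 4 with the stricter filter, 3 with median-of-ratios scaling, 1 without knockdown tumors 1 and 3, and 1 to 4 with 1 library left out. In culture it was 0 throughout. With the replicate number as a block, 0 members were called in tumors and 0 for the difference. Deviations from the group means had correlations of -0.16 to 0.05 between same-numbered libraries and -0.14 to 0.15 between differently numbered ones. The labels do not say whether the numbers pair the samples, and these correlations cannot decide it. The cause of these changes was not tested. The share of all genes called under each setting is not given here. No change in the member counts is therefore read as particular to the histones.

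The log2 ratio of the tumor sums kept its sign in every class and setting. With 1 library left out it ran from -1.06 to -0.82 for all members, -1.50 to -1.20 for H1, -0.85 to -0.41 for H2A, -1.17 to -0.93 for H2B, -0.29 to -0.11 for H3 and -0.70 to -0.57 for H4. The H3 ratio, -0.23 as reported, was -0.49 without knockdown tumors 1 and 3. Changes of sign occurred in genes near 0. With 1 library left out, the culture change ran from -0.15 to 0.0545 for H1f2 and -0.0382 to 0.0278 for H2bc4, and the tumor change from -0.11 to 0.23 for H2ac24 and -0.46 to 0.39 for H3c10. H3c10 was at 0.031 with median-of-ratios scaling and 0.11 without knockdown tumors 1 and 3, where H3c3 was at -0.16. TPM keep no depth, so low members such as H2bc18 have unknown counting error.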

Other observations

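H4c17 was listed at 0 in all 6 culture libraries and stood at 12.2, 15.6 and 12.6 TPM in control tumors against 12.2, 11.7 and 12.6 TPM in knockdown tumors. Its tumor levels were alike across the groups (log2 change -0.13, limma adjusted p = 0.553), while its neighbor in sequence H4c18 was lower in the knockdown tumors. Of the 50-base stretches of the H4c17 transcript, 89.8% also occur in another member. How the counting divided reads between such genes was not tested.

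H2ac10 and H4c9 were lower in tumors than in culture, while H1f2, H2bc4 and H2bc8 were higher. H2ac10 had a mean of 23.2 TPM in control cultures and 3.63 TPM in control tumors.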
